A study of Rattus norvegicus with 9 samples.

Results

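The ADAMTS proteases are secreted zinc enzymes that carry thrombospondin repeats and cut the proteins of the extracellular matrix. Of the 34267 genes in a deposited RNA-seq table of rat cartilage progenitor cells, 19 had an ADAMTS symbol, and the 8 described here, Adamts1, Adamts2, Adamts4, Adamts5, Adamts7, Adamts9, Adamts12 and Adamts15, were chosen by gene symbol. The cells were primary cultures from the condylar cartilage of wild-type (WT) rats, in 3 groups of 3 libraries. P9 cells had been cultured to passage 9, which the study uses as its model of senescence by repeated division. FFSS cells were passage 3 cells under flow fluid shear stress, used as its model of degeneration under load, and P3 cells, the controls, had been cultured to passage 3 only. All groups shared the tissue and the WT genotype. The sources used here do not give the strength or duration of the shear, the age of the animals, or whether replicate libraries trace back to different rats or dishes, so each p-value measures no more than library-to-library spread.

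In cartilage, ADAMTS4 and ADAMTS5 are the main aggrecanases. They cut the core protein of aggrecan, the large proteoglycan that holds water in the tissue, and their activity is a known feature of osteoarthritis. ADAMTS1, ADAMTS9 and ADAMTS15 can also cut aggrecan or the related proteoglycan versican and are counted here as aggrecanases. ADAMTS2 has another substrate: it removes the amino-terminal propeptide of procollagens I, II and III, a step that fibril assembly depends on. ADAMTS7 and ADAMTS12 are close relatives of each other that bind and cut cartilage oligomeric matrix protein (COMP). Most family members are made as inactive precursors, which furin-like convertases cleave, and the aggrecanases are inhibited by the tissue inhibitor TIMP-3.

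Levels are in FPKM, that is fragments corrected for the length of the gene and the depth of the library, from polyadenylated RNA. Between 13264930 and 15323790 fragments per library had been assigned to genes, and 1 fragment on a gene of 1 kilobase was worth 0.0619 to 0.0733 FPKM. FFSS replicate 1 stood apart from its group. Its Pearson r across genes was 0.915 and 0.947 with the other FFSS libraries and 0.936 to 0.945 with the P3 libraries. Mitochondrial transcripts took 2.96 to 3.75% of fragments in FFSS libraries, 2.31 to 2.56% in P9 libraries and 2.12 to 2.32% in P3 libraries. The progenitor surface markers Cd44 and Thy1 and the matrix gene Acan were expressed in all groups. Col2a1, the defining collagen of mature cartilage, stood at 0 to 0.191 FPKM in P9, 0.0297 to 0.378 FPKM in FFSS and 0.703 to 1.06 FPKM in P3. They come from 12 listed cartilage and progenitor genes, 9 of them tested as described below. Relative to P3, Acan rose and Col11a1 and Eng fell in P9, beside 9.83% of all tested genes called. In FFSS, Thy1, Eng and Sox9 rose and Acan and Col11a1 fell, beside 21.8%. Both calls of Eng, that of Thy1 and the FFSS call of Col11a1 were lost without some single libraries. Prg4 was at most 0.0778 FPKM in P9, below all other libraries, and Matn3 and Col11a2 stayed below 1 FPKM throughout.

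All 8 genes had reads in every library, but at very different levels. Adamts1 was the most abundant in each group, with mean FPKM of 71.3 ± 3.16 in P9, 43.5 ± 11 in FFSS and 114 ± 14.2 in P3 (SD, n = 3 libraries in each group, as in all that follows). Adamts2 came next in each group, and its libraries lay wholly below those of Adamts1. In P9 the order went on with Adamts12, Adamts5, Adamts7, Adamts9, Adamts4 and Adamts15, and among these neighbours only Adamts5 and Adamts7 overlapped. In P3 the order was the same, but there Adamts12 overlapped Adamts5 and Adamts4 overlapped Adamts15. In FFSS the mean of Adamts5 came next after that of Adamts2, and every neighbouring pair from Adamts2 down to Adamts4 (Adamts2, Adamts5, Adamts7, Adamts12, Adamts9, Adamts4) overlapped, so that the order between them was not resolved. Adamts15 was the lowest in each group.

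**Figure D1:**
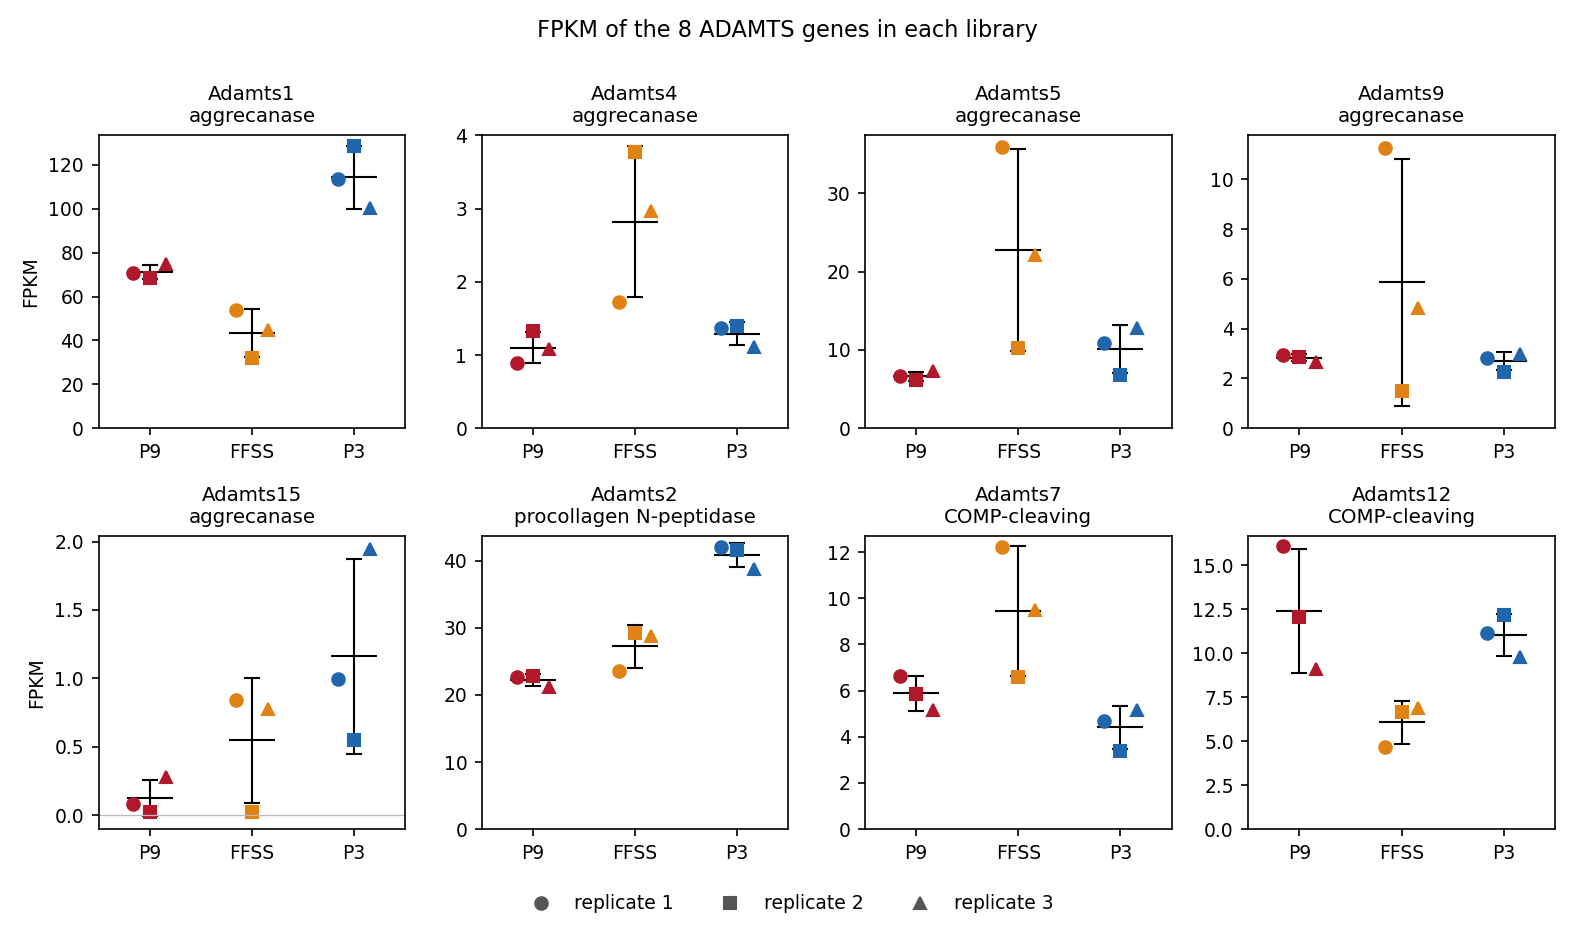
FPKM of the 8 ADAMTS genes (a panel each, y axis in FPKM) in the P9, FFSS and P3 libraries, with circles, squares and triangles for replicates 1, 2 and 3 and bars for the mean ± SD of 3 libraries. Adamts1 and Adamts2 were highest in all 3 P3 libraries, Adamts4 and Adamts7 in FFSS on average, and the FFSS libraries ranged from 10.2 to 35.9 FPKM for Adamts5 and from 1.5 to 11.3 FPKM for Adamts9.

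For 6 of the 8 genes RefSeq gave a transcription start, on the rat assembly GRCr8, and the 250 bases before it are shown for the 5 that passed the test under shear, so that the promoters of genes that moved in opposite directions can be read side by side. Each runs in the direction of its gene, with the TATA box (TATAAA) and the GC box (GGGCGG), on either strand, in capitals. The start lies just after the last base.
Adamts1, chr11:38427385-38427634 (minus strand): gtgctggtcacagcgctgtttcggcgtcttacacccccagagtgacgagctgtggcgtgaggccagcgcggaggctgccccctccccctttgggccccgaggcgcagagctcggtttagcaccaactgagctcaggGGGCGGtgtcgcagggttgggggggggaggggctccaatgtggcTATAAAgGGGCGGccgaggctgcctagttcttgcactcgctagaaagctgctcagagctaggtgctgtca
Adamts2, chr10:35421780-35422029 (plus strand): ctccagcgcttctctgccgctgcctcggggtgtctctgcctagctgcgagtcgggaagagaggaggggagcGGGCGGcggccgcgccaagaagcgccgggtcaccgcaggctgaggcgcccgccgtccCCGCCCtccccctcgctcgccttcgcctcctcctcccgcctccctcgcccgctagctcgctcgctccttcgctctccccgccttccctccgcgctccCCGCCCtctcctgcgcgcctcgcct
Adamts12, chr2:61759737-61759986 (plus strand): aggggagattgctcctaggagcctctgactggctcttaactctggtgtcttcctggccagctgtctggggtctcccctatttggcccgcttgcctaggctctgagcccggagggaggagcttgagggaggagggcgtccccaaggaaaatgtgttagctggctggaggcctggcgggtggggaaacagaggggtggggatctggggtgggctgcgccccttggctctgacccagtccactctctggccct
Adamts4, chr13:86202761-86203010 (plus strand): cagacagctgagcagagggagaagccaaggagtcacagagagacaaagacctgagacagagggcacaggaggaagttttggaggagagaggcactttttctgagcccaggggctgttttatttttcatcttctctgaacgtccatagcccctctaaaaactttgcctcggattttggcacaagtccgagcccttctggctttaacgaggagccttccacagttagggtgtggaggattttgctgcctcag
Adamts7, chr8:99584279-99584528 (plus strand): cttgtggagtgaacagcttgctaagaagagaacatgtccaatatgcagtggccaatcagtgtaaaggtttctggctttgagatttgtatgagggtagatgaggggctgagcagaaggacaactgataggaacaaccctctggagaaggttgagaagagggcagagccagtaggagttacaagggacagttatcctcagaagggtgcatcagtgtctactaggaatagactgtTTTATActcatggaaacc
The first 3, from the genes that were lower under shear, had a GC content of 65.2, 75.6 and 63.6%. The last 2, from Adamts4 and Adamts7, which were higher, had 51.2 and 46%, against a median of 51.2% over the 33469 promoters in the table. The promoter of Adamts9, whose shear value of 0.62 was not called, had 71.6% and a GC box. Adamts5 and Adamts15 had no entry. Whether GC content goes with the direction under shear was not tested. Adamts1 carried a TATA box 70 to 65 bases before the start and GC boxes at 114 to 109 and 63 to 58 bases. Adamts2 carried 3 GC boxes, and Adamts7 a TATA box on the opposite strand 18 to 13 bases before the start. The promoters of Adamts4 and Adamts12 held neither. Over all promoters, 12.9% held TATAAA and 30.5% held GGGCGG on either strand. The letters TGTGGT (RUNX factors, 14.5% of all promoters), TGANTCA (AP-1, 6.34%), GGAATG (TEAD factors, 12.1%) and AACAAT (SOX factors, 10.3%) were searched on both strands and were in none of the 6 windows. These matches describe letters in a window and not bound sites.

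Of the 8 genes, 7 reached 1 FPKM in 3 or more libraries, the filter used, and were tested with limma among 13059 genes. Of these, 6 reached 1 FPKM in all 9 libraries and Adamts4 in 8. Fold changes are differences of log2(FPKM + 1), which understate the change of genes near 1 FPKM, and a gene was called at a Benjamini-Hochberg adjusted p under 0.05. In bulk RNA, fewer cells that express a gene and less RNA per cell cannot be told apart. The comparisons of P9 and of FFSS with P3 share the same 3 P3 libraries.

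At passage 9, Adamts2 fell and the other 6 tested genes did not pass the test. The 1 call among 7 genes stood beside 9.83% of all tested genes called in this comparison, 5.39% higher and 4.44% lower, a share that does not set the 7 genes apart. Without a test, the FPKM of the P9 and P3 libraries did not overlap for Adamts1 and Adamts2, both lower in P9, against 40.1% of all tested genes without overlap (20.9% higher and 19.1% lower). The median log2 fold change of the 7 genes was -0.13, against -0.0026 over all tested genes.

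Under shear, Adamts1, Adamts2 and Adamts12 fell and Adamts4 and Adamts7 rose, 5 of 7 tested genes, beside 21.8% of all tested genes called (11.4% higher and 10.4% lower). The FFSS and P3 libraries did not overlap for the same 5 genes, against 42.4% of all tested genes (20.1% higher and 22.3% lower). The median log2 fold change of the 7 genes was 0.62, against -0.011 over all tested genes, and the median stood between genes that moved in opposite directions. Between the models, Adamts1 and Adamts12 were higher in P9 than in FFSS and Adamts4 and Adamts5 were lower, 4 of 7, beside 31.4% of all tested genes (16.1% higher and 15.3% lower). Of the 7 genes, 5 had P9 and FFSS libraries without overlap, against 42.2% of all tested genes (22.2% higher and 20.0% lower). The median log2 fold change of P9 minus FFSS was -0.56, against 0.0029 over all tested genes.

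**Figure D2:**
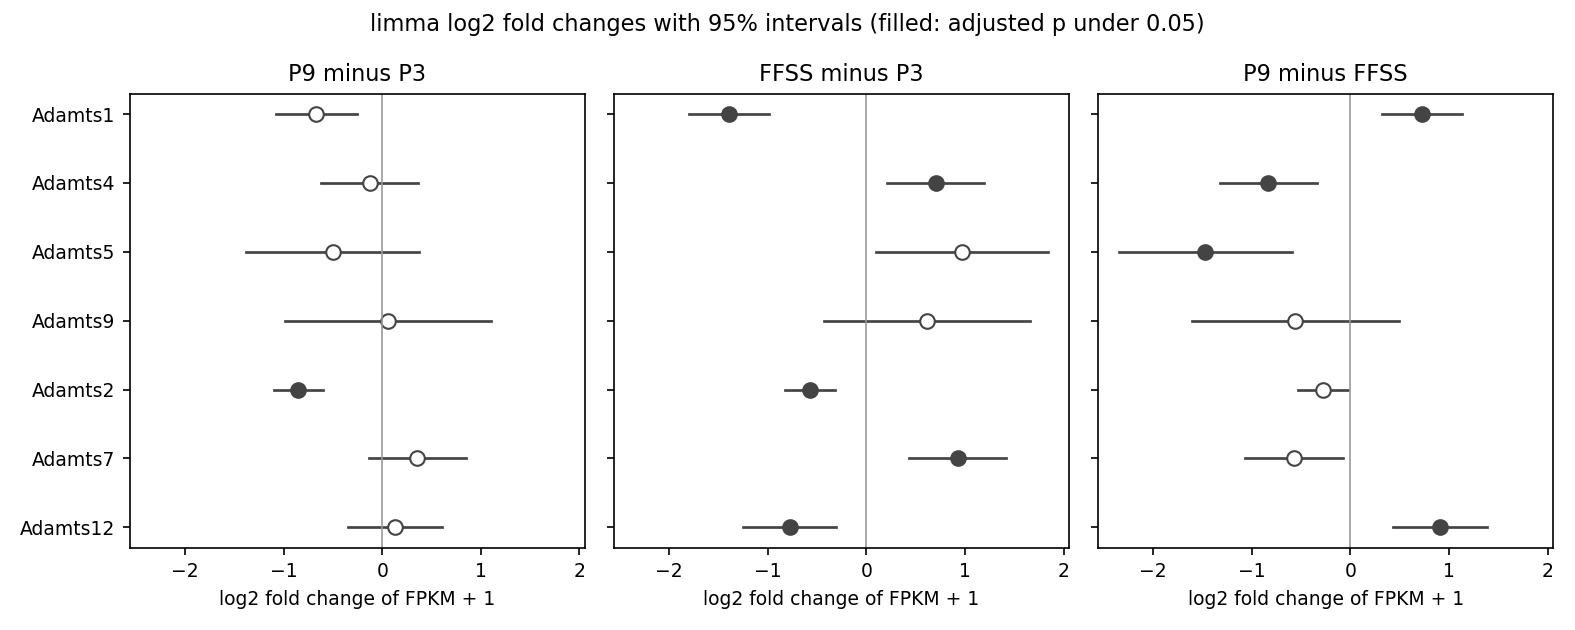
Log2 fold change of FPKM + 1 (x axis) of the 7 tested ADAMTS genes in 3 panels, each model against P3 and then P9 minus FFSS, with 95% intervals from limma; filled points had an adjusted p under 0.05. Only Adamts2 was called in P9 minus P3, while FFSS minus P3 held calls on both sides of 0, from -1.40 for Adamts1 to 0.93 for Adamts7.

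Among the aggrecanases, Adamts1 (ENSRNOG00000001607) lies on Rnor_6.0 at chr11:25342126-25350974, minus strand. It is a broadly expressed protease that also cuts versican. It stood at 70.6, 68.5 and 74.7 FPKM in the P9 libraries, 53.9, 32.1 and 44.6 FPKM in FFSS, and 113, 129 and 100.5 FPKM in P3. The 3 groups did not overlap: every P3 library was above every P9 library, and every P9 library above every FFSS library. The log2 fold change was -1.40 for FFSS minus P3 (standard error 0.18, limma adjusted p = 0.00195) and 0.73 for P9 minus FFSS (standard error 0.18, adjusted p = 0.0156), and both calls were kept without each library in turn. For P9 minus P3 it was -0.67 (95% interval -1.08 to -0.26, limma adjusted p = 0.0503), just outside the threshold. That value was called without FFSS replicate 1 (adjusted p = 0.0142) or 2 (0.0110), with only the P9 and P3 libraries (0.0069), with voom on fragments (0.0398) and with a filter of 5 FPKM (0.0486).

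Adamts5 (ENSRNOG00000057794) lies next to Adamts1 on the same strand, at chr11:25410975-25456836, with 60.0 kb and no annotated gene between them. Its product is the aggrecanase most closely tied to cartilage loss in mouse models of osteoarthritis. It stood at 6.62, 6.10 and 7.26 FPKM in P9, 35.9, 10.2 and 22.1 FPKM in FFSS, and 10.9, 6.77 and 12.8 FPKM in P3. FFSS replicates 1 and 3 were above every P3 library, while FFSS replicate 2 lay within the P3 range. For FFSS minus P3 the log2 fold change of 0.97 did not pass (95% interval 0.09 to 1.85, limma adjusted p = 0.103), and without FFSS replicate 2 it was 1.43 and called (0.0128). For P9 minus FFSS it was -1.47 (standard error 0.39, limma adjusted p = 0.0199), a call lost without P9 replicate 1 (adjusted p = 0.0567) or 2 (0.0618), or FFSS replicate 3 (0.0654). For P9 minus P3 the value was -0.50 (95% interval -1.38 to 0.37, adjusted p = 0.496).

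The levels of these chromosomal neighbours can be set against each other within a library, since FPKM is scaled by gene length. The ratio of Adamts5 to Adamts1 was 0.0937, 0.0892 and 0.0972 in P9, 0.666, 0.318 and 0.494 in FFSS, and 0.0959, 0.0526 and 0.127 in P3. Every FFSS library was above every other library, including FFSS replicate 2, in which Adamts5 itself lay within the P3 range. The P9 values fell within the P3 range. The ratio was not tested, as it was formed after both genes had been seen.

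Adamts4 (ENSRNOG00000003538, chr13:89622632-89634419, plus strand) encodes the aggrecanase that inflammatory cytokines are known to induce in cartilage. It was scarce, at 0.897, 1.33 and 1.08 FPKM in P9, 1.72, 3.78 and 2.97 FPKM in FFSS, and 1.37, 1.39 and 1.11 FPKM in P3, on 69 to 310 fragments per library. All 3 FFSS libraries were above all others, with FFSS replicate 1 the closest to them. The log2 fold change was 0.70 for FFSS minus P3 (standard error 0.22, limma adjusted p = 0.0478). That call was kept without FFSS replicate 1 (adjusted p = 0.0039) and lost without each of the other 8 libraries (0.0569, 0.0684 and 0.0695 without P9 replicates 1 to 3, 0.130 and 0.135 without FFSS replicates 2 and 3, and 0.117, 0.108 and 0.140 without P3 replicates 1 to 3). It was also lost with a pseudocount of 0.1 (0.0545), no filter (0.0847) or only the FFSS and P3 libraries (0.0879), and voom on fragments gave 1.07 (0.0374). For P9 minus FFSS it was -0.83 (standard error 0.22, limma adjusted p = 0.0195), lost without P9 replicate 1 (adjusted p = 0.0612) or 3 (0.0511), or FFSS replicate 2 (0.0550) or 3 (0.0663), or with only the P9 and FFSS libraries (0.0597). With voom it was -1.31 (0.0134). For P9 minus P3 it was -0.13 (95% interval -0.62 to 0.36, adjusted p = 0.788).

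Adamts9 (ENSRNOG00000023257, chr4:124660262-124858250, minus strand) encodes a versican-cutting protease of many embryonic tissues. It stood at 2.95, 2.87 and 2.66 FPKM in P9, 11.3, 1.5 and 4.82 FPKM in FFSS, and 2.81, 2.28 and 2.97 FPKM in P3. The FFSS libraries lay on both sides of the P3 range, replicates 1 and 3 above it and replicate 2 below. No comparison was called, and the log2 fold change for FFSS minus P3 was 0.62 (95% interval -0.43 to 1.66, limma adjusted p = 0.363). That value was decided by the library left out: 1.20 and called without FFSS replicate 2 (adjusted p = 0.0259), and 0.05 without FFSS replicate 1 (0.904). For P9 minus FFSS the log2 fold change of -0.56 (adjusted p = 0.384) was called without FFSS replicate 2 (0.0210). For P9 minus P3 it was 0.06 (95% interval -0.99 to 1.10, adjusted p = 0.964).

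Adamts15 (ENSRNOG00000009892, chr8:31977001-32000378, minus strand), another proteoglycan-cutting member, did not pass the filter and was not tested. It rested on 7, 2 and 27 fragments in P9 (0.0846, 0.0216 and 0.276 FPKM), 76, 2 and 70 in FFSS (0.838, 0.0226 and 0.777 FPKM), and 91, 46 and 174 in P3 (0.992, 0.550 and 1.94 FPKM). All P9 libraries were below all P3 libraries, and the FFSS libraries overlapped both groups. With no filter on low values, the log2 fold changes were -0.90 in P9 and -0.48 in FFSS, each against P3, and -0.41 for P9 minus FFSS, and none was called (limma adjusted p = 0.148, 0.329 and 0.379).

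Summed over the 5 aggrecanases, FPKM was 82.0 ± 3.65 in P9, 75.5 ± 28.1 in FFSS and 130 ± 10.3 in P3. Adamts1 made up most of that sum. Without it the other 4 summed to 10.5, 10.3 and 11.3 FPKM in P9, 49.8, 15.5 and 30.6 FPKM in FFSS, and 16.1, 11 and 18.8 FPKM in P3. The full sum was lowest in FFSS on average, while the sum without Adamts1 was highest there, with FFSS replicate 2 inside the P3 range.

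Adamts2 (ENSRNOG00000061484, chr10:36098051-36304409, plus strand), the procollagen N-peptidase, fell in both comparisons with P3. It stood at 22.6, 22.8 and 21.1 FPKM in P9, 23.6, 29.3 and 28.8 FPKM in FFSS, and 42.1, 41.7 and 38.8 FPKM in P3. The P3 libraries lay above all others, and every P9 library was below every FFSS library. The log2 fold change was -0.85 for P9 minus P3 (standard error 0.11, limma adjusted p = 0.00198) and -0.57 for FFSS minus P3 (standard error 0.11, adjusted p = 0.00894), and both calls were kept without each library in turn. For P9 minus FFSS the value was -0.28 (adjusted p = 0.0851), and it was called without FFSS replicate 1 (0.0106).

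Of 5 tested genes of fibril-forming procollagens, among them its substrates, of 6 listed, 3 fell in P9 and 3 in FFSS, relative to P3, beside 4.44% and 10.4% of all tested genes called lower. In both cases these were Col1a1, Col5a1 and Col5a2, and none rose. The P9 call of Col5a1 was lost without P3 replicate 1 (limma adjusted p = 0.0777), 2 (0.0706) or 3 (0.0502). Col1a1, the main chain of collagen I, averaged 4805 ± 307 FPKM in P9, 4415 ± 593 FPKM in FFSS and 9777 ± 504 FPKM in P3 (log2 fold change -1.03 in P9 and -1.15 in FFSS, limma adjusted p = 0.00391 and 0.00231). Col1a2, its partner chain, varied widely within P3 (1741, 522 and 711 FPKM) and was not called. Col3a1, the chain of collagen III, averaged 1262 ± 125 FPKM in P9, 2022 ± 692 FPKM in FFSS and 2185 ± 66.4 FPKM in P3 and was not called in either comparison with P3 (adjusted p = 0.0755 and 0.634). The P9 value of Col3a1 was called without FFSS replicate 1 (adjusted p = 0.00484) or 2 (0.0299).

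The COMP-cutting pair moved in opposite directions under shear. Adamts7 (ENSRNOG00000028036, chr8:97535777-97575655, plus strand) stood at 6.64, 5.86 and 5.15 FPKM in P9, 12.2, 6.61 and 9.5 FPKM in FFSS, and 4.70, 3.38 and 5.16 FPKM in P3. All FFSS libraries were above all P3 libraries, and FFSS replicate 2 overlapped the P9 range. The log2 fold change was 0.93 for FFSS minus P3 (standard error 0.22, limma adjusted p = 0.0186), lost without FFSS replicate 3 (adjusted p = 0.0618) or P3 replicate 1 (0.0551) or 2 (0.0719). For P9 minus FFSS it was -0.57 (adjusted p = 0.0747), called without FFSS replicate 2 (0.0199) and with voom (0.0495), and for P9 minus P3 it was 0.36 (adjusted p = 0.386).

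Adamts12 (ENSRNOG00000018865, chr2:61039053-61340697, plus strand) stood at 16.1, 12.1 and 9.09 FPKM in P9, 4.68, 6.64 and 6.89 FPKM in FFSS, and 11.1, 12.2 and 9.79 FPKM in P3. Every FFSS library was below every other library, and the P9 libraries spanned the P3 range. The log2 fold change was -0.78 for FFSS minus P3 (standard error 0.21, limma adjusted p = 0.03), a call lost without P9 replicate 2 (adjusted p = 0.0502), FFSS replicate 3 (0.0562) or P3 replicates 1 (0.0925), 2 (0.104) or 3 (0.0601), or with no filter (0.0553). For P9 minus FFSS it was 0.91 (standard error 0.21, limma adjusted p = 0.0116), kept without each library in turn, and for P9 minus P3 it was 0.13 (adjusted p = 0.778).

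Within a library, the ratio of Adamts7 to Adamts12 was 0.412, 0.484 and 0.567 in P9, 2.61, 0.996 and 1.38 in FFSS, and 0.422, 0.277 and 0.527 in P3. The FFSS values lay above all others, and P9 and P3 overlapped. Separation of FFSS from P3 in this ratio follows from the separation of each gene, in opposite directions. The ratio was formed after both genes had been seen and was not tested. The summed FPKM of Adamts7 and Adamts12 overlapped between all groups, at 18.3 ± 4.27 in P9, 15.5 ± 1.98 in FFSS and 15.5 ± 0.458 in P3. Comp, which encodes their shared substrate, stood at 0.887, 1.14 and 3.11 FPKM in P9, 1.60, 10.04 and 4.79 FPKM in FFSS, and 7.27, 6.95 and 6.39 FPKM in P3. All P9 libraries were below all P3 libraries, but the log2 fold change of -1.62 was not called (limma adjusted p = 0.0702), except without FFSS replicate 1 (0.0109) or 2 (0.0226).

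**Figure D3:**
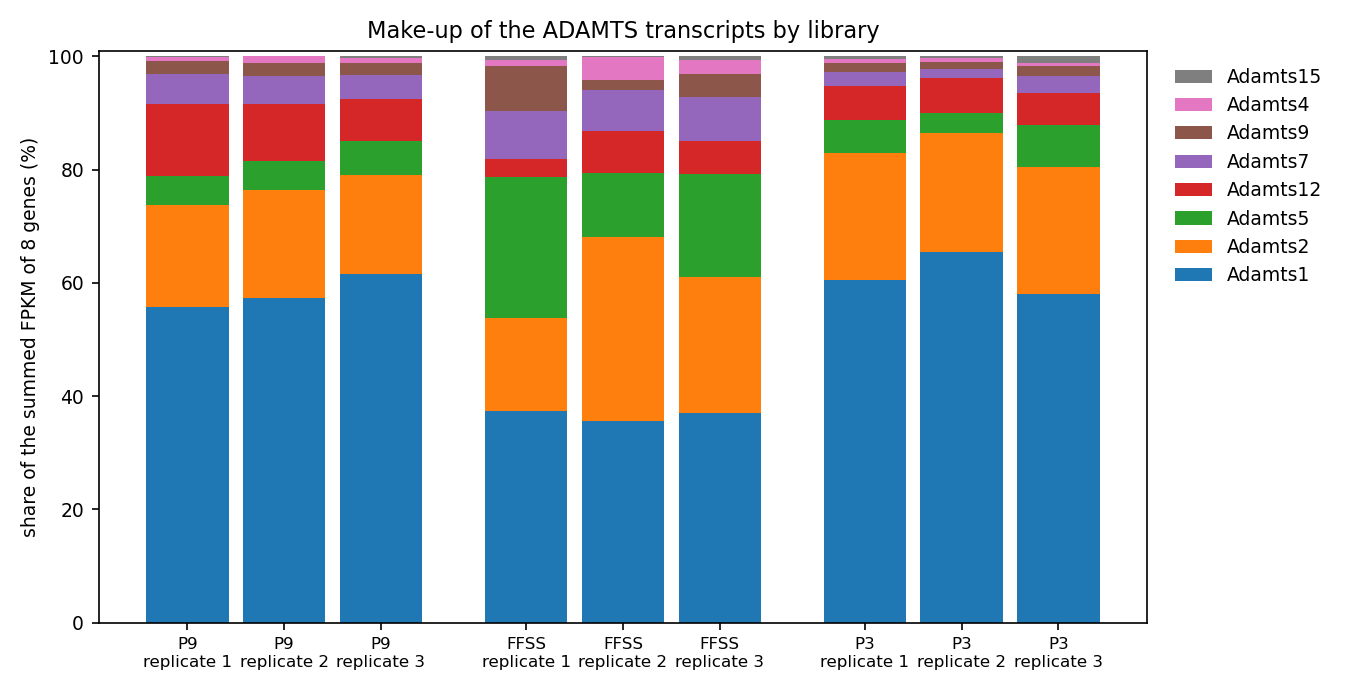
Share (y axis, percent) of each of the 8 ADAMTS genes in their summed FPKM, as stacked bars, in each library of P9, FFSS and P3. Adamts1 held 58.2% on average in P9 and 61.3% in P3 but 36.7% in FFSS, where Adamts5 held 11.3 to 24.9%.

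All 8 genes summed to 122 ± 3.65 FPKM in P9, 118 ± 27.1 FPKM in FFSS and 186 ± 12.1 FPKM in P3. Adamts1 made up 58.2 ± 2.99% of that sum in P9, 36.7 ± 0.956% in FFSS and 61.3 ± 3.71% in P3. The share of Adamts5 averaged 5.44% in P9, 18.2% in FFSS and 5.54% in P3, and that of Adamts7 averaged 4.80% in P9, 7.90% in FFSS and 2.40% in P3. Adamts12 was the only member with a higher mean share in P9 than in both other groups, at 10.1 ± 2.62%, against 5.44 ± 2.075% in FFSS and 5.93 ± 0.267% in P3. Its own level was not called between P9 and P3 (log2 fold change 0.13, limma adjusted p = 0.778), while the sum of the 8 genes was lower in P9. These shares weigh genes by level per length. By fragments, in which long transcripts count for more, Adamts1 held 48.1% in P9, 30.7% in FFSS and 52.2% in P3, Adamts5 held 3.25% in P9, 11.1% in FFSS and 3.41% in P3, and Adamts12 held 16.3% in P9, 8.80% in FFSS and 9.87% in P3.

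The FFSS libraries did not move as a unit. In Adamts1, Adamts5, Adamts7 and Adamts9, FFSS replicate 1 was the highest of the 3 and replicate 2 the lowest, while in Adamts2, Adamts4 and Adamts12 replicate 1 was the lowest. Relative to the P3 mean on the log2(FPKM + 1) scale, Adamts5 was 1.77, 0.05 and 1.09 higher in FFSS replicates 1, 2 and 3, and Adamts9 differed by 1.74, -0.56 and 0.66. Adamts4 was 0.25, 1.06 and 0.80 higher in the same libraries. Adamts1 was below the P3 mean in each of them, at -1.06, -1.79 and -1.33. Replicate 1 is also the FFSS library that stood apart across all genes, and the part of that in these values was not tested. Vcan, which encodes the proteoglycan versican, showed the order of Adamts1, Adamts5, Adamts7 and Adamts9 among these libraries, at 42.6, 4.67 and 18.5 FPKM. Timp3 had the reverse order, at 28.1, 306 and 243 FPKM. The share of all genes with either order was not counted.

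**Figure D4:**
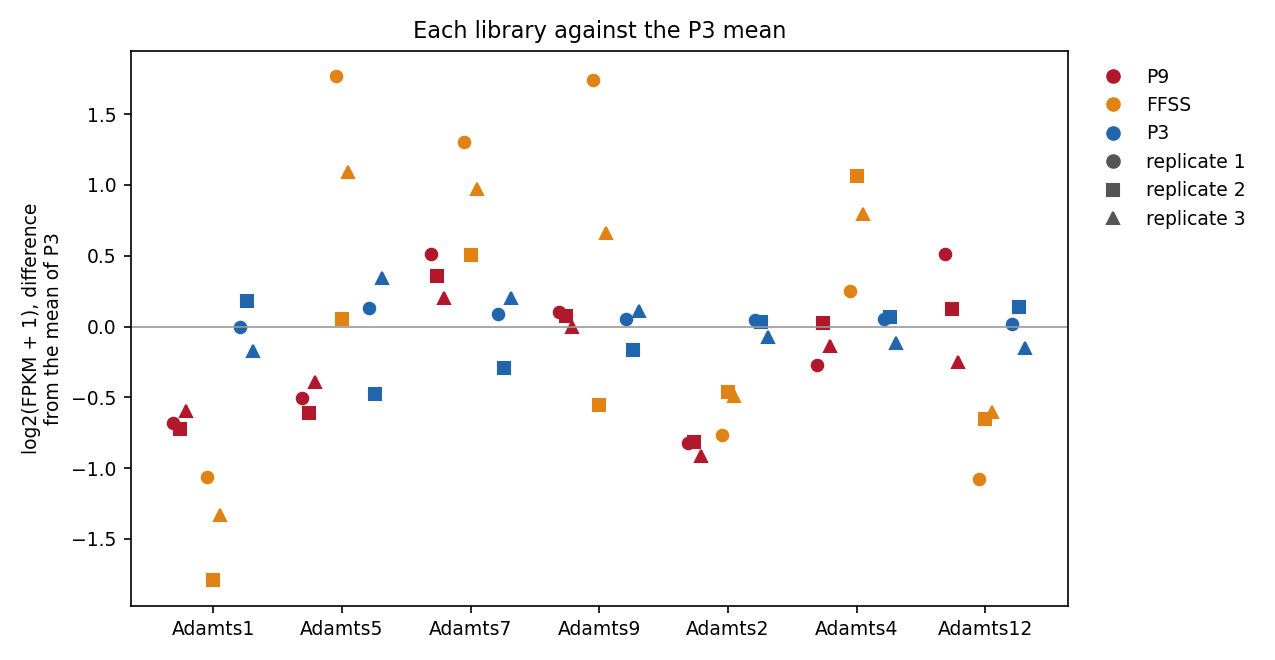
Difference of log2(FPKM + 1) of each library from the mean of the 3 P3 libraries (y axis) for the 7 tested ADAMTS genes, with P9, FFSS and P3 left to right and circles, squares and triangles for replicates 1, 2 and 3. FFSS replicate 1 reached 1.77 for Adamts5 and 1.74 for Adamts9, and FFSS replicate 2 reached -0.56 for Adamts9.

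The aggrecan gene itself moved in opposite directions in the models. Acan stood at 561 ± 56.4 FPKM in P9, 40.2 ± 9.80 FPKM in FFSS and 128 ± 6.56 FPKM in P3, with calls in all comparisons that no left-out library removed (log2 fold change 2.12 in P9 and -1.68 in FFSS, each against P3, and 3.80 for P9 minus FFSS). In FFSS, Acan and Adamts1 were thus both lower than in P3 while Adamts4 was higher, though its call was lost without any 1 of 8 libraries. In P9, Acan was higher while none of the tested aggrecanases was called. Adamts1 was there just outside the threshold (log2 fold change -0.67, limma adjusted p = 0.0503). Vcan was not called in any comparison. Its log2 fold change for FFSS minus P3 was -1.07 (95% interval -2.42 to 0.28, limma adjusted p = 0.224), and it was called without FFSS replicate 1 (0.0151).

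Among genes for inhibitors, clearance and retention, 7 of 8 were tested, all but Timp4, which stood at no more than 0.847 FPKM in any library. In P9, 3 fell (Timp2, Reck and A2m) and none rose, beside 4.44% of all tested genes lower and 5.39% higher, and only the call of Reck was kept without each library in turn. A2m, which encodes a broad protease trap, stood at 0 to 0.0481 FPKM in P9, 1.45 to 4.4 FPKM in FFSS and 0.920 to 1.37 FPKM in P3, and its P9 call (adjusted p = 0.0414) was lost without any P9 library (0.0992, 0.122 and 0.1001), any P3 library (0.158, 0.0892 and 0.122) or FFSS replicate 3 (0.0692). In FFSS, Sdc4 rose and none fell, beside 11.4% of all tested genes higher and 10.4% lower. Between the models, Timp2, Sdc4, Reck and A2m were lower in P9 and none was higher, beside 15.3% of all tested genes lower and 16.1% higher. Sdc4, a cell surface proteoglycan known in mouse cartilage to activate ADAMTS5, averaged 77.4 ± 16.6 FPKM in P9, 175 ± 48.8 FPKM in FFSS and 65.7 ± 7.28 FPKM in P3 (log2 fold change 1.37 for FFSS minus P3, limma adjusted p = 0.00516). It was higher in each FFSS library (128, 225 and 171 FPKM) than in any other, and no left-out library removed the call. Timp2, a broad metalloproteinase inhibitor, averaged 813 ± 161 FPKM in P9, 1523 ± 104 FPKM in FFSS and 1396 ± 13.6 FPKM in P3 (log2 fold change -0.80 for P9 minus P3, limma adjusted p = 0.0147, lost without P3 replicates 1, 2 or 3 at 0.0647, 0.0551 and 0.0651). Reck, a membrane-bound inhibitor, averaged 19.99 ± 1.73 FPKM in P9, 43.8 ± 4.67 FPKM in FFSS and 39.5 ± 3.59 FPKM in P3 (-0.95 for P9 minus P3, limma adjusted p = 0.00193, kept without each library in turn).

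Timp3, the inhibitor of the aggrecanases, stood at 36.9, 32.8 and 44.99 FPKM in P9, 28.1, 306 and 243 FPKM in FFSS, and 74.3, 55.3 and 79.8 FPKM in P3. FFSS replicate 1 was below every other library and FFSS replicates 2 and 3 were far above all, so that no comparison was called. Without FFSS replicate 1 each was called (limma adjusted p = 0.0129 in P9 and 0.00025 in FFSS, each against P3, and 2.83e-05 for P9 minus FFSS). Timp1, a general inhibitor of matrix metalloproteinases, and Lrp1, a receptor that clears aggrecanases, were not called. They averaged 485 ± 8.59 and 125 ± 6.14 FPKM in P9, 616 ± 78.9 and 128 ± 59.8 FPKM in FFSS, and 549 ± 18.6 and 202 ± 11.4 FPKM in P3. Lrp1 was called lower in FFSS than in P3 without FFSS replicate 1 (limma adjusted p = 0.00511) and lower in P9 than in P3 without FFSS replicate 1 (0.0425) or 2 (0.0216), and Timp1 lower in P9 than in FFSS without FFSS replicate 1 (0.0221).

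All 4 convertase genes were tested, and 2 fell in P9 (Pcsk5 and Pcsk6), while in FFSS Furin rose and Pcsk6 fell, beside 9.83% of all tested genes called in P9 and 21.8% in FFSS. The P9 call of Pcsk6 (limma adjusted p = 0.0206) was lost without P9 replicate 1 (0.0676) or 2 (0.0864) or P3 replicate 1 (0.0741), 2 (0.0797) or 3 (0.0581). Furin averaged 42.2 ± 5.05 FPKM in P9, 64.8 ± 13.9 FPKM in FFSS and 36.4 ± 2.48 FPKM in P3 (log2 fold change 0.79 for FFSS minus P3, limma adjusted p = 0.0129). The call was lost without FFSS replicate 3 (adjusted p = 0.0524), P3 replicate 1 (0.0520) or P3 replicate 3 (0.0510). Pcsk5 averaged 5.54 ± 0.251 FPKM in P9, 14.3 ± 2.46 FPKM in FFSS and 12.5 ± 1.72 FPKM in P3 (-1.03 for P9 minus P3, limma adjusted p = 0.00319, kept without each library in turn). Between the models, Furin and Pcsk5 were lower in P9 and none was higher, beside 15.3% of all tested genes lower and 16.1% higher. The call of Pcsk5 (-1.21, limma adjusted p = 0.00063) was kept without each library in turn. That of Furin (-0.59, limma adjusted p = 0.0285) was lost without some single libraries.

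**Figure D5:**
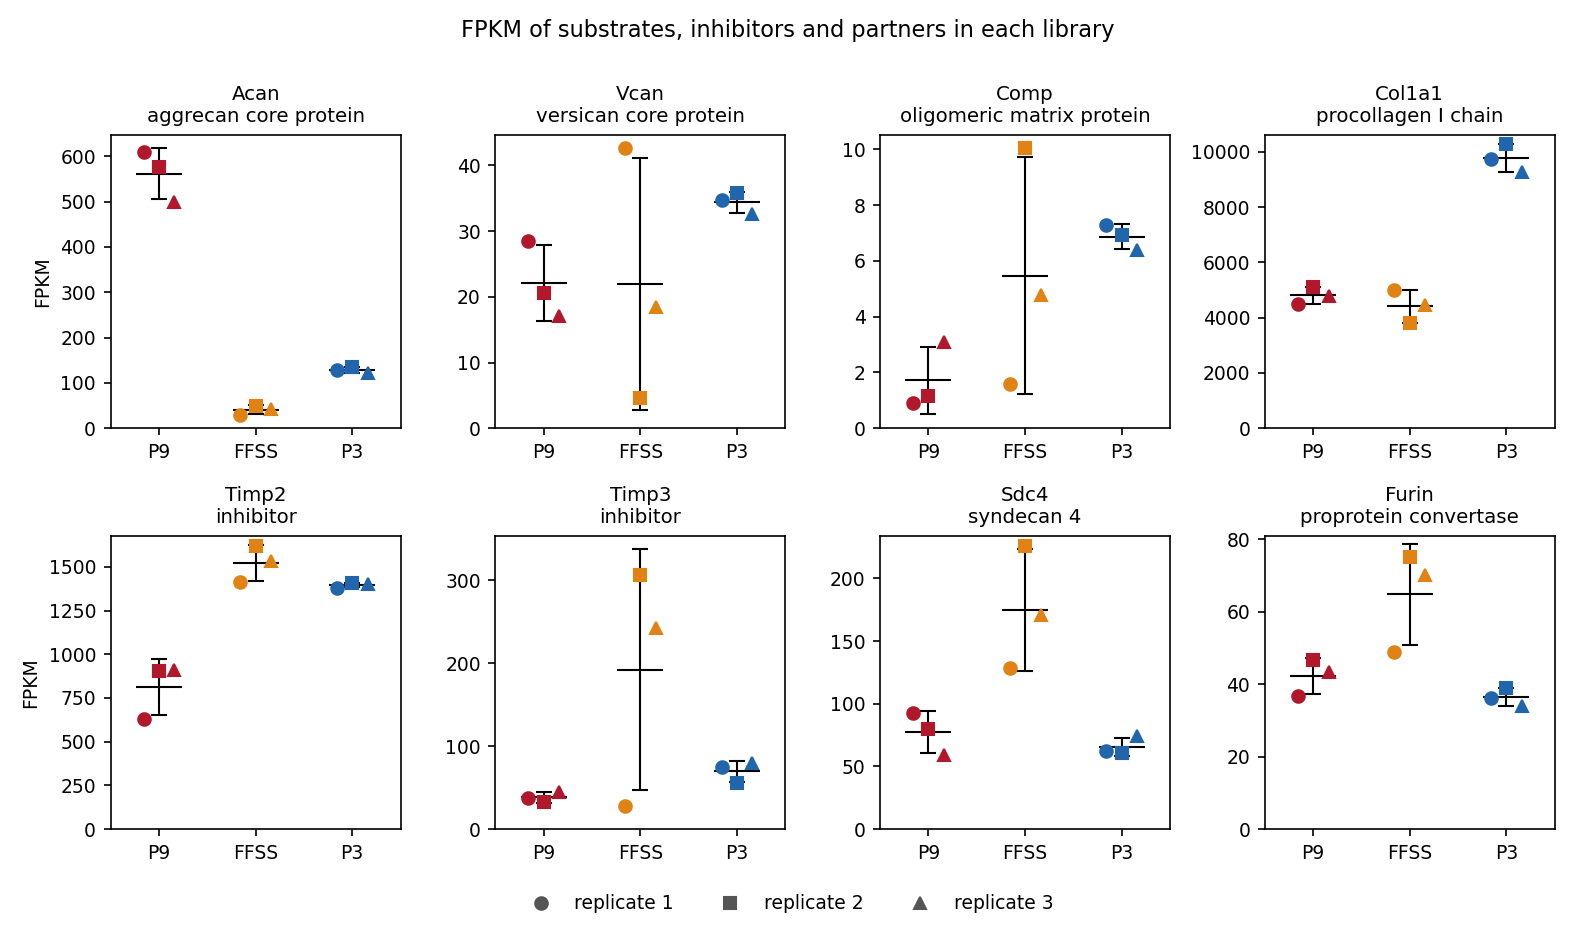
FPKM (y axis) of substrates (Acan, Vcan, Comp, Col1a1), inhibitors and partners (Timp2, Timp3, Sdc4) and the convertase gene Furin in P9, FFSS and P3 libraries, with circles, squares and triangles for replicates 1, 2 and 3 and bars for the mean ± SD. Acan was highest in all P9 libraries, Sdc4 in all FFSS libraries, Col1a1 in all P3 libraries, and Timp3 ranged from 28.1 to 306 FPKM within FFSS.

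Of the 11 other ADAMTS genes in the table, 4 were tested. Adamts6 fell in both comparisons with P3, and Adamts10, a gene of fibrillin-rich matrix, rose in FFSS, beside the 9.83% of all tested genes called in P9 and 21.8% in FFSS. Adamts6 averaged 12.8 ± 0.849 FPKM in P9, 13.6 ± 2.12 FPKM in FFSS and 20.2 ± 0.862 FPKM in P3 (log2 fold change -0.63 and -0.55, limma adjusted p = 0.0153 and 0.0179). The P9 call was lost without P9 replicate 2 (0.0706) or 3 (0.0513) or P3 replicates 1 to 3 (0.0796, 0.0560 and 0.0549), and the FFSS call without P3 replicates 1 to 3 (0.0769, 0.0629 and 0.0509). Adamts10 averaged 22.2 ± 3.92 FPKM in P9, 41.1 ± 5.97 FPKM in FFSS and 26.7 ± 0.744 FPKM in P3 (log2 fold change 0.59 for FFSS minus P3, limma adjusted p = 0.0238). That call was lost without FFSS replicate 2 (0.0649) or 3 (0.0826) or P3 replicates 1 to 3 (0.0726, 0.0792 and 0.0771). Adamts10 was lower in P9 than in FFSS without exception among the left-out libraries (-0.86, limma adjusted p = 0.00322). Adamts8, on the opposite strand 18.2 kb from Adamts15, stood at 0.267, 0.369 and 1.37 FPKM in P9, 2.85, 0.704 and 1.11 FPKM in FFSS, and 2.73, 2.83 and 2.40 FPKM in P3, and was not called (-1.19 for P9 minus P3, adjusted p = 0.0579). It was called there without P9 replicate 3 (0.0353), FFSS replicate 1 (0.0138) or FFSS replicate 2 (0.0379), and for FFSS minus P3 without FFSS replicate 1 (0.0281). Of 3 tested ADAMTS-like genes, which encode related proteins with no protease domain, only Adamtsl3 was called, higher in P9 than in FFSS (17.0 ± 0.875 against 8.84 ± 1.70 FPKM, 0.88 on the log2 scale, limma adjusted p = 0.00273). In that comparison 31.4% of all tested genes were called, a share that does not set the 3 genes apart.

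The genes closest to each member in pattern were sought by the root mean square difference of centred log2 values over the 9 libraries, which share the group structure. For Adamts2, whose own spread on that scale was 0.365, the nearest were Xpot (0.0918), Spire1 (0.0959) and Tmem104 (0.12). For Adamts1 (0.603), they were Gfod1 (0.114), Lef1 (0.125) and Mthfd1l (0.171). Adamts12 (0.461) was nearest to Thbs1, which encodes thrombospondin-1 (0.107), followed by Nbeal1 (0.139) and Adcy9 (0.151). The nearest to Adamts5 (0.764) was Irf7, a transcription factor of the interferon response (0.127), with Irak3 (0.212) and Mgst3 (0.229) well behind it. Adamts7 (0.449) was followed by Plekha4 (0.108), Ddx58 (0.112) and Ddah2 (0.115), and Adamts4 (0.423) by Snx21 (0.0692), Tmed3 (0.0772) and Ubl3 (0.0793).

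Markers of other cells moved with the groups. Leukocyte markers summed to 5.14 to 5.66 FPKM in P9, 42.2 to 100 FPKM in FFSS and 9.38 to 10.9 FPKM in P3, most of it Cd14. Cd68, a macrophage marker, averaged 0.561 FPKM in P9, 2.29 FPKM in FFSS and 0.683 FPKM in P3. Only its FFSS libraries (2.11 to 2.60 FPKM) reached 1 FPKM. It thus passed the filter through the group in which it was high, and no test of it is given. Csf1r, another, stood at 0.0840, 3.17 and 2.08 FPKM in FFSS replicates 1 to 3 and at most 0.218 FPKM in P9 and 0.187 FPKM in P3. Ptprc, the pan-leukocyte marker, was at most 0.0400 FPKM, and Cd3e, a T cell marker, was at 0 in every library. Smooth muscle markers summed to 8219 to 9699 FPKM in P9, 3135 to 4597 FPKM in FFSS and 3545 to 4237 FPKM in P3, most of it Acta2 and Tagln. Of 4 tested, Acta2, Tagln and Cnn1 were higher in P9 than in P3, beside 5.39% of all tested genes higher. Cnn1 was lower in FFSS than in P3, beside 10.4% lower. All 4, with Myh11, were higher in P9 than in FFSS, beside 16.1% higher. The calls of Tagln and Cnn1 against P3 were lost without some single libraries. Markers of synovial and tendon fibroblasts summed to 63.5 to 231 FPKM in P9, 1706 to 2524 FPKM in FFSS and 1139 to 1360 FPKM in P3. In FFSS and P3 most of that sum was Fmod, at a mean of 1939 and 1121 FPKM. At FFSS minus P3, 1 of the 5 genes was called, Tnmd (log2 fold change 1.88), beside 21.8% of all tested genes. Fmod (0.78), Scx (0.33), Prg4 (1.21) and Mkx (-0.04) were not called there. Relative to P3, Fmod, Mkx and Tnmd were lower in P9, beside 4.44% of all tested genes lower. Between the models all 5 genes were lower in P9, beside 15.3% lower. The P9 minus P3 call of Tnmd and the P9 minus FFSS calls of Scx and Prg4 were lost without some single libraries. Endothelial markers summed to at most 0.956 FPKM, with Cdh5 at 0, epithelial markers to at most 2.13 FPKM and skeletal muscle markers to at most 2.91 FPKM in any library. The part of these cell types in the levels of the ADAMTS genes was not tested.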

How the data were processed

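Polyadenylated RNA was sequenced in 3 libraries each of P9, FFSS and P3 cells, mapped to groups by GEO's labels. The values are FPKM deposited by the authors, 1 table of 34267 genes. HISAT2 2.0.5, featureCounts 1.5.0-p3 and the build Rnor_6.0 are named, per the submitters' processing notes, with strandedness not given, so reads from an antisense partner cannot be told apart. Value times gene length was a whole multiple of a step in 100% of values, within 0.01 of a step, so the depth per library is known. A count of 0 still allows 3 fragments, 0.186 to 0.220 FPKM at 1 kilobase, which covers counting error only.

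The 13059 genes that reached 1 FPKM in 3 or more libraries were fitted as log2(FPKM + 1) with limma 3.58.1 (trend, R 4.3.3) over all 9 libraries, two-sided, with Benjamini-Hochberg adjustment over all 13059 genes. The members and lists were chosen with earlier results of these data known. All 8 members were named, as were the tested substrates, inhibitors and clearance genes, and Furin. Called members of the other lists, cell type markers aside, and the 3 genes of nearest pattern for each called member were also named. Alternatives were a pseudocount of 0.1, no filter, 5 FPKM, library totals, voom on fragments, 2 groups only, a replicate block and each library left out. Software was NumPy 2.4.6, pandas 2.3.3 and matplotlib 3.10.9 under Python 3.11.15. The fit was tested on simulated data. Promoters came from RefSeq (GRCr8).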

Additional observations from a re-analysis of the deposited data

How the results depend on the processing

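Each call of a member kept its direction under every alternative in which that gene was tested (Adamts4 was not with a filter of at least 5 FPKM). Among values not called, 3 changed sign without a library: Adamts12 at P9 minus P3 (-0.06 without P9 replicate 1), Adamts9 at P9 minus P3 (-0.02 without P3 replicate 2) and Adamts9 at P9 minus FFSS (0.0050 without FFSS replicate 1). At P9 minus P3, members called lower numbered 2 in place of 1 with a filter of at least 5 FPKM, with only the 2 groups compared and with voom on recovered fragments, Adamts1 being added each time, and 1 to 2 without each library in turn. At FFSS minus P3, members called higher numbered 1 in place of 2 with a pseudocount of 0.1, with no filter, with a filter of at least 5 FPKM, and with only the 2 groups compared, and 0 to 3 without each library. At P9 minus FFSS, members called lower numbered 1 in place of 2 with a filter of at least 5 FPKM and with only the 2 groups compared, and 0 to 3 without each library.

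Over all genes, only the 2 groups compared gave 1375 higher and 1113 lower at P9 minus P3, and 1233 higher and 1258 lower at P9 minus FFSS. Without each library in turn, the calls ranged from 354 to 1225 higher and 260 to 1005 lower at P9 minus P3, from 657 to 2588 and 525 to 2543 at FFSS minus P3, and from 1395 to 3053 and 1272 to 2933 at P9 minus FFSS. Voom on fragments called 702 and 597, 1396 and 1411, and 2074 and 1997 genes in those comparisons. The causes were not tested.

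The replicate numbers did not pair the libraries: deviations of same-numbered libraries correlated at -0.0408 to 0.0331, and 1 of 18 best matches was with a library of the same number. With the replicate block, members called at FFSS minus P3 numbered 1 higher and 2 lower, Adamts4 (limma adjusted p = 0.0557) and Adamts12 (0.0546) being lost, and all genes called numbered 550 and 432, 1204 and 1061, and 1842 and 1787. The block changed no other call of a member. Depth limits Adamts15, on as few as 2 fragments, and Adamts4. By library totals, the sum of the 8 genes in P9 was 126 ± 4.64 FPKM.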

Other observations

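Of 9 genes for cytokines and receptors known to induce aggrecanases, 5 were tested. In FFSS, 2 rose relative to P3, Il6 and Tnfrsf1a, and none fell, beside 11.4% of all tested genes higher and 10.4% lower. In P9, none was called relative to P3. Between the models, Tnfrsf1a, Osmr and Il6 were lower in P9 and none was higher, beside 15.3% of all tested genes lower and 16.1% higher. These calls between the models were kept without each library in turn. Il6, a cytokine of inflammation, stood at 3.999, 2.89 and 1.89 FPKM in P9, 12.6, 18.9 and 12.6 FPKM in FFSS, and 1.14, 2.01 and 1.04 FPKM in P3 (log2 fold change 2.71 for FFSS minus P3, limma adjusted p = 0.00055), with all FFSS libraries above all others. Tnfrsf1a, a receptor of tumour necrosis factor, averaged 55.1 ± 4.67 FPKM in P9, 93.6 ± 16.2 FPKM in FFSS and 59.8 ± 4.52 FPKM in P3 (0.63, adjusted p = 0.0161, lost without FFSS replicate 3 at 0.0594 and P3 replicates 1 and 2 at 0.0654 and 0.0663). Osmr, a cytokine receptor gene, stood at 12.5, 8.77 and 7.72 FPKM in P9, 38.3, 16.3 and 28.0 FPKM in FFSS, and 18.9, 17.1 and 21.4 FPKM in P3. Its log2 fold change for P9 minus FFSS was -1.365 (limma adjusted p = 0.00745). The ligand genes Il1b and Tnf were nearly silent, at most 0.287 and 0.0409 FPKM in any library.

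Among genes of other procollagen-processing enzymes, 4 of 7 listed were tested. Relative to P3, only Tll1 was called, lower in FFSS, beside 10.4% of all tested genes lower. Between the models, Tll1 was higher in P9 and Pcolce and Bmp1 were lower, beside 16.1% of all tested genes higher and 15.3% lower. Tll1, a relative of the procollagen C-proteinase, stood at 34.2, 35.8 and 34.5 FPKM in P9, 15.8, 11.4 and 13.7 FPKM in FFSS, and 29.7, 40.4 and 21.5 FPKM in P3. It fell in FFSS, where every library was below all others (log2 fold change -1.08, limma adjusted p = 0.00894), and was higher in P9 than in FFSS (1.305, adjusted p = 0.00209), both kept without each library in turn. Pcolce averaged 425 ± 55.7 FPKM in P9, 750 ± 189 FPKM in FFSS and 631 ± 49.6 FPKM in P3. Its P9 minus FFSS call (-0.80, limma adjusted p = 0.0131) was kept without each library in turn. Bmp1 averaged 43.9 ± 3.12 FPKM in P9, 56.9 ± 5.45 FPKM in FFSS and 55.4 ± 2.75 FPKM in P3. Its P9 minus FFSS call (-0.37, limma adjusted p = 0.0327) was lost without 7 of the 9 libraries, each left out in turn. Adamts14, a close relative of Adamts2, stood at 2.64, 2.40 and 2.003 FPKM in P9, 2.08, 5.5 and 3.65 FPKM in FFSS, and 1.91, 2.29 and 1.54 FPKM in P3, and was not called. At FFSS minus P3 its log2 fold change was 0.65 (95% interval 0.07 to 1.23, adjusted p = 0.102), and it was called without FFSS replicate 1 (0.00692).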
